A study of Mus musculus with 18 samples.

Results

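Ephrins and Eph receptors were followed through single-cell RNA sequencing of gastrulating mouse embryos. The 9 genes described are the EphA receptors Epha1, Epha2 and Epha4, the class A ephrins Efna1, Efna3 and Efna5, and the class B ephrins Efnb1, Efnb2 and Efnb3. They were chosen by name and are 9 of 23093 features in the count files, where each of the 9 was found. Their levels were read in cells with at least 2000 nuclear transcripts, by embryonic stage and by whether a cell held transcripts of T, Sox2, Mesp1 or Foxa2.

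Eph receptors are receptor tyrosine kinases whose ligands, the ephrins, are themselves bound to cell membranes, so that signals pass between touching cells and can run in both directions. Class A ephrins are held by a lipid anchor and bind mainly EphA receptors. Class B ephrins cross the membrane and bind mainly EphB receptors, and EphA4 is known to bind ephrins of both classes. In vertebrate embryos the family is known for repulsion between cells and for keeping cell groups apart at tissue boundaries.

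The embryos were C57BL/6 wild type, collected whole at embryonic day (E) 6.75 or E7.5, with no treatment or genetic change. At E6.75 the extraembryonic part was removed, embryos were dissociated singly and cells were picked by hand for CEL-Seq2. At E7.5 embryos were cut below the chorion, litters were pooled, and cells were sorted by flow cytometry for mCEL-Seq2, an automated form of the same method. Both methods tag the 3′ end of each polyadenylated RNA with a cell barcode and a molecular identifier, so values are counts of transcripts. Stage, way of collecting and protocol version changed together and cannot be told apart. T (Brachyury) marks the primitive streak and axial mesoderm, Mesp1 marks early mesoderm, Foxa2 marks definitive endoderm and axial mesoderm, and Sox2 marks epiblast and neural ectoderm.

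The 6 E6.75 libraries held 2933395 to 5493791 nuclear transcripts, and 543 of 576 barcodes in use passed the minimum depth. The 12 E7.5 libraries used 1152 barcodes, of which 429 passed. The submitters' description of the design states 576 and 1172 cells for the stages. E7.5 replicate 5 had 3042 transcripts in all and no cell that passed, so 11 libraries were used, with 518343 to 2627269 transcripts. A library is the unit of replication throughout. The labels do not say which libraries share embryos or litters, so p-values measure the spread between libraries, which may be partly technical. Divisions of cells fitted without a filter on low counts are an exception, described where they appear. The barcodes in use are 1 of 4 fixed sets, so a pair of libraries shares either 0 or up to 96 of them, and a shared barcode is not a shared cell.

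Cells were divided by detection, with at least 1 transcript counted as positive. Detection depends on depth: T-positive cells at E6.75 had a median of 55530 transcripts and T-negative cells 32486, and Sox2-positive cells had 49480.5 against 12723.4. Cells rich in visceral endoderm transcripts (at least 0.5% of the transcripts from 9 genes such as Afp, Ttr and Apoa1) were set apart as a VE-marker class of 18 cells at E6.75. They were left out of comparisons between positive and negative cells, as was 1 E7.5 cell with at least 0.1% of its transcripts from 7 extraembryonic ectoderm genes. Apoa1 was at 2188 transcripts scaled to 1e+06 per sum (CPM) in the pooled VE-marker cells and at 2.45 in E6.75 cells with Mesp1 and no Foxa2, while Cdh11, a mesoderm cadherin, was at 4.21 and 106.

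The stretches upstream of the receptor genes are shown because transcripts of these 3 receptors were higher in T-positive cells at E6.75, and that of Efna3 because it was higher in Mesp1-positive cells. Each is the 250 bases before a transcription start, from RefSeq on GRCm38.p6, written 5′ to 3′ on the gene's strand. Of the 9 genes, 8 matched the RefSeq promoter table, with 10 starts in all. Efna3 has another start there, with the window chr3:89321769-89322018, which is not shown. Capitals mark the E-box CAGGTG or its reverse complement CACCTG, letters that Snail-family repressors are known to bind.
Epha1, chr6:42373269-42373518, minus strand: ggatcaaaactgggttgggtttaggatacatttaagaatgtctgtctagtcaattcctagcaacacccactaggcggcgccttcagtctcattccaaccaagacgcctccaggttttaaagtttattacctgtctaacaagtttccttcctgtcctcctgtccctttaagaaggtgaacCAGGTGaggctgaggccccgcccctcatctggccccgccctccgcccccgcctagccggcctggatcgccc
Epha2, chr4:141300971-141301220, plus strand: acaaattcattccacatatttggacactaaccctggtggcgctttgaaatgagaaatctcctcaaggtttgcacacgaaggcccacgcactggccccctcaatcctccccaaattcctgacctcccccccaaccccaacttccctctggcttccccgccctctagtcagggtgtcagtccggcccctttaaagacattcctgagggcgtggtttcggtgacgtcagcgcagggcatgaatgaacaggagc
Epha4, chr1:77515089-77515338, minus strand: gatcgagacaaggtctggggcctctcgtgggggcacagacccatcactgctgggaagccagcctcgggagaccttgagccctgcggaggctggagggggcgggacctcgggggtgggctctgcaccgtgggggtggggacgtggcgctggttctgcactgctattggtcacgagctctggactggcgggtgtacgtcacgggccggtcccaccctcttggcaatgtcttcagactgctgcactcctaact
Efna3, chr3:89322940-89323189, minus strand: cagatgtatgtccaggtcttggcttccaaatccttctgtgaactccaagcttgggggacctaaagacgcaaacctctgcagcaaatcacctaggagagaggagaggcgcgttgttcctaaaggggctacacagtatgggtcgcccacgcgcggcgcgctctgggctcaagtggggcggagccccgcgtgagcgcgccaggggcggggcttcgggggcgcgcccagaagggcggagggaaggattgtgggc
The E-box lies 71 bases before the Epha1 start and was found in 17.3% of the 32536 windows of that length in the table. Among the genes not shown, Efnb2 had 1 match, 167 bases before its start. The stretch AGGTGTGA (reverse complement TCACACCT), which T-box factors such as T are known to bind, was in 1.13% of all windows and in none of the 10 windows of these genes. These matches describe letters in a short window, and binding was not measured here. The windows of Epha1 and Epha2 were 54.4% and 55.6% G and C, near the median of 52.4% over the table, and that of Epha4 was 66.0%.

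Between the stages, 4 of the 9 genes rose (Epha4, Efnb1, Efnb3 and Efna1), 1 fell (Epha2) and 4 did not pass the test (Epha1, Efna3, Efna5 and Efnb2). Over the 9998 genes tested, 20.0% were called higher and 18.8% lower at E7.5, 38.8% in all, so calls between the stages were frequent. The median log2 fold change was 0.33 over the 9 genes and 0.03 over the genes tested. The test was edgeR's quasi-likelihood test on sums of transcripts per library (6 against 11 libraries). In such sums, more cells of a type and more RNA per cell cannot be told apart.

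Epha4, a receptor for ephrins of both classes, lies at chr1:77367185-77515088 (GENCODE vM21, GRCm38). It was at 9.27, 8.46, 6.85, 24.2, 16.7 and 16.3 CPM in the E6.75 libraries (replicates 1_10, 1_11, 2_12, 2_13, 2_14 and 2_9). At E7.5 it ranged from 69.5 CPM through a median of 99.0 to 150 over 11 libraries. The stages did not overlap, and the lowest E7.5 library stood above the highest E6.75 library. Its mean rose from 13.6 ± 6.64 to 102 ± 25.4 CPM (SD), or by 2.80 ± 0.22 (SE) in log2 fold change (edgeR adjusted p = 8.69e-09).

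Epha2, at chr4:141301240-141329384, moved the other way. The E6.75 libraries held 25 to 54.7 CPM with a median of 28.6, and the E7.5 libraries 1.49 to 38.6 with a median of 5.08. E7.5 replicate 10 held the 38.6 CPM and was the one library to reach into the E6.75 range, the other 10 being at 16.4 CPM or less. Epha2 fell by 1.78 ± 0.36 on the log2 scale (edgeR adjusted p = 0.000548).

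Epha1, at chr6:42358487-42373268, did not pass the test. It ranged from 38.1 through 43.7 to 66.8 CPM at E6.75 and from 16.1 through 37.0 to 114 CPM at E7.5, so the spread widened around similar medians. The log2 fold change was -0.22 ± 0.25 (edgeR adjusted p = 0.507). E7.5 replicate 10 was the highest library for Epha1, as it was for Epha2. The annotated 3′ end of Epha1 overlaps Zyx, a focal adhesion gene on the opposite strand. Whether the counting used strand is not given in the sources used here, so reads of the overlap could fall to either gene, and Zyx is given beside Epha1 below.

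Of the class A ephrins, Efna1 (chr3:89271733-89281142) was at 2.04 to 5.44 CPM at E6.75 and 2.97 to 14.5 CPM at E7.5. It rose by 1.4 ± 0.29 on the log2 scale (edgeR adjusted p = 0.000748) while the ranges overlapped through E7.5 replicate 10. Efna3 (chr3:89313899-89322965) overlaps the antisense gene Gm15998, so its reads carry the same doubt about strand as those of Epha1. It had means of 14.7 ± 8.36 and 15.3 ± 9.96 CPM, and Efna5 (chr17:62604184-62881317) of 42.4 ± 5.10 and 47.4 ± 12. Neither passed the test, with log2 fold changes of -0.14 ± 0.36 and 0.13 ± 0.14.

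The class B ephrins Efnb1 and Efnb3 both rose. Efnb1 (chrX:99136130-99148991) was at 0.685 to 5.47 CPM at E6.75 with a median of 2.84, and at 5.29 to 35.9 at E7.5 with a median of 15.2. Its groups overlapped by a single E7.5 library, replicate 6, and its log2 fold change was 2.28 ± 0.36 (edgeR adjusted p = 3.84e-05). Efnb3 (chr11:69554092-69560205) went from a median of 9.93 CPM, range 6.89 to 14.8, to a median of 34.1, range 12.7 to 60.7. Here E7.5 replicate 12 lay inside the E6.75 range, and the log2 fold change was 1.59 ± 0.23 (edgeR adjusted p = 1.43e-05).

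Efnb2 (chr8:8617434-8661242) had the smallest spread relative to its level among the class B ephrins. Its means were 28.9 ± 5.02 and 37.0 ± 7.72 CPM, and the log2 fold change of 0.33 ± 0.14 did not pass (edgeR adjusted p = 0.0624). It passed without E6.75 replicate 2_12 (adjusted p = 0.0322) and without E7.5 replicate 9 (0.0421) or 10 (0.0416). It also passed with cells of at least 0.05% visceral endoderm or extraembryonic ectoderm transcripts left out (0.0296).

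**Figure D1:**
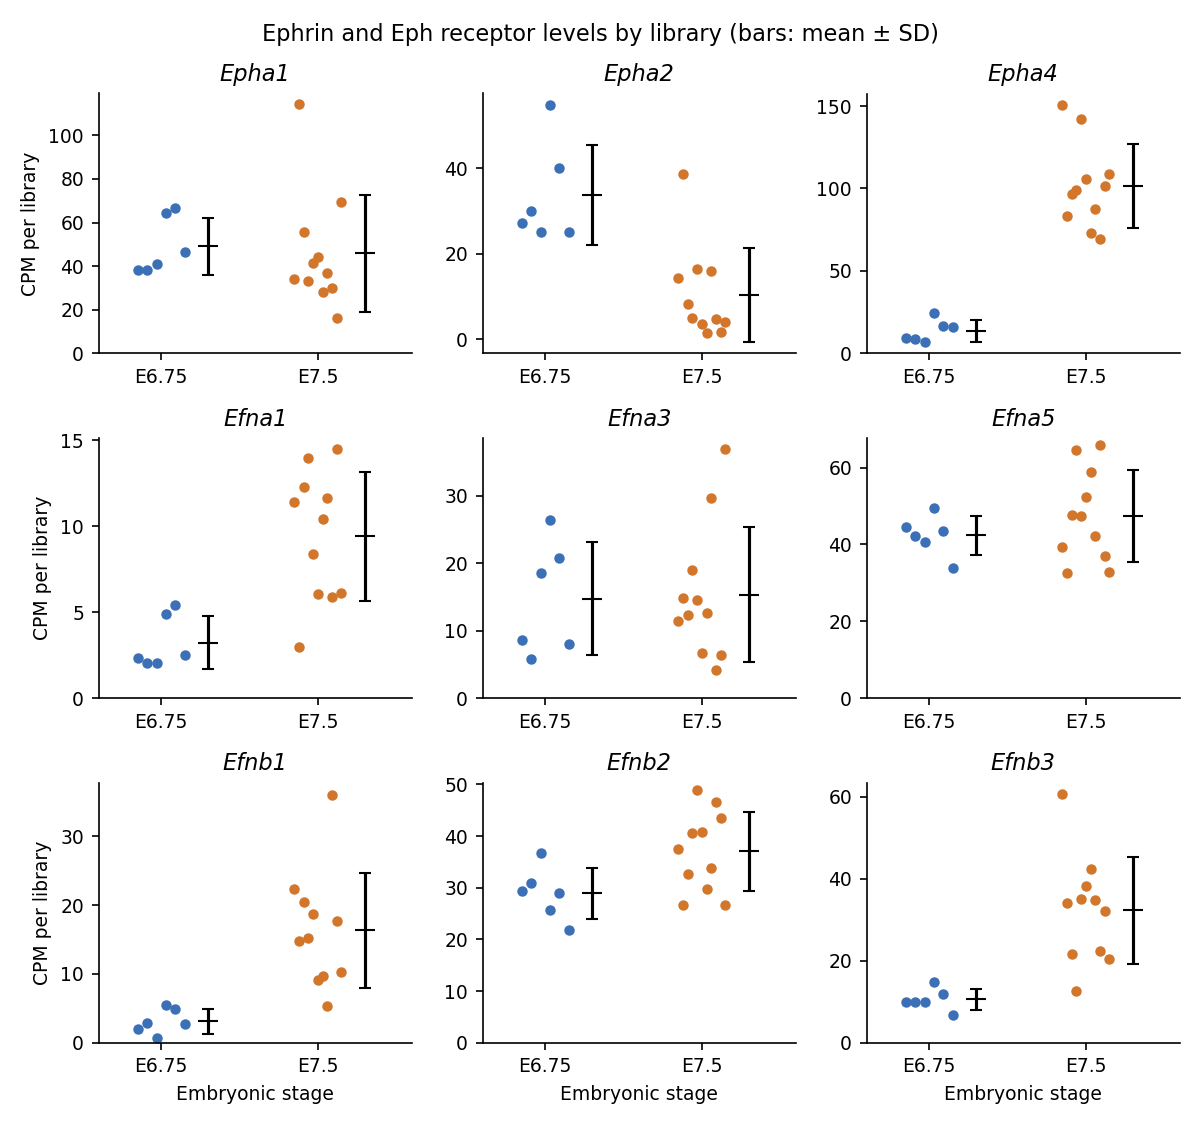
CPM of each of the 9 genes (vertical axes, linear) in the 6 E6.75 and 11 E7.5 libraries (points), with the mean ± SD as a bar at the right of each group. Epha4 shows no overlap between the stages, Epha2 is lower at E7.5 apart from replicate 10 at 38.6 CPM, and the Efna5 means were 42.4 and 47.4 CPM.

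The share of cells with a transcript was also set between the stages. Each cell was thinned to 10000 transcripts, which left out 92 shallower cells at E6.75 and 90 at E7.5. Epha4 was then detected in 9.5% ± 3.57 of cells per library at E6.75 and in 42.9% ± 7.33 at E7.5 (SD over libraries). Before thinning these shares were 24.3% ± 9.19 and 56.8% ± 8.97. Epha2 went from 24.2% ± 4.79 to 6.36% ± 7.92 of thinned cells, against 50.1% ± 12.4 and 14.1% ± 8.74 before thinning. Efnb3 was in 9.60% ± 3.85 and 21.1% ± 11.5 of thinned cells, and in 28.6% ± 10.0 and 46.2% ± 12 before thinning.

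The mean level of Epha4 was higher at E7.5 in each class of cells that both stages held. The classes do not overlap, and values are means over libraries with at least 3 cells of the class, as a description with no test. Cells with Sox2 and none of the other 3 transcripts had 7.45 ± 1.95 CPM at E6.75 (n = 6 libraries) and 36.3 ± 19.1 at E7.5 (n = 6). Cells with T alone had 11.6 ± 4.14 (n = 6) and 65.7 ± 47.5 (n = 10), cells with Foxa2 and no Mesp1 had 10.7 ± 6.66 (n = 6) and 38.0 ± 28.9 (n = 8), and cells with Mesp1 and no Foxa2 had 46.2 ± 37.1 (n = 3) and 191 ± 82.6 (n = 11).

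The mean of Epha2 was lower at E7.5 in each of these classes. The means at E6.75 and E7.5 were 21.6 ± 6.68 and 1.29 ± 3.16 CPM for Sox2 alone, 43.0 ± 19.0 and 14.7 ± 19.7 for T alone, 52.1 ± 18.9 and 20 ± 24.9 for Foxa2, and 29.9 ± 26.9 and 7.32 ± 7.77 for Mesp1. The SDs overlapped in the T, Foxa2 and Mesp1 cells. In the E6.75 cells with both Mesp1 and Foxa2 it was at 91.5 ± 15.4 CPM (n = 2). The 12 E7.5 cells with both held 1 Epha2 transcript, and none in the 2 libraries with at least 3 such cells.

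**Figure D2:**
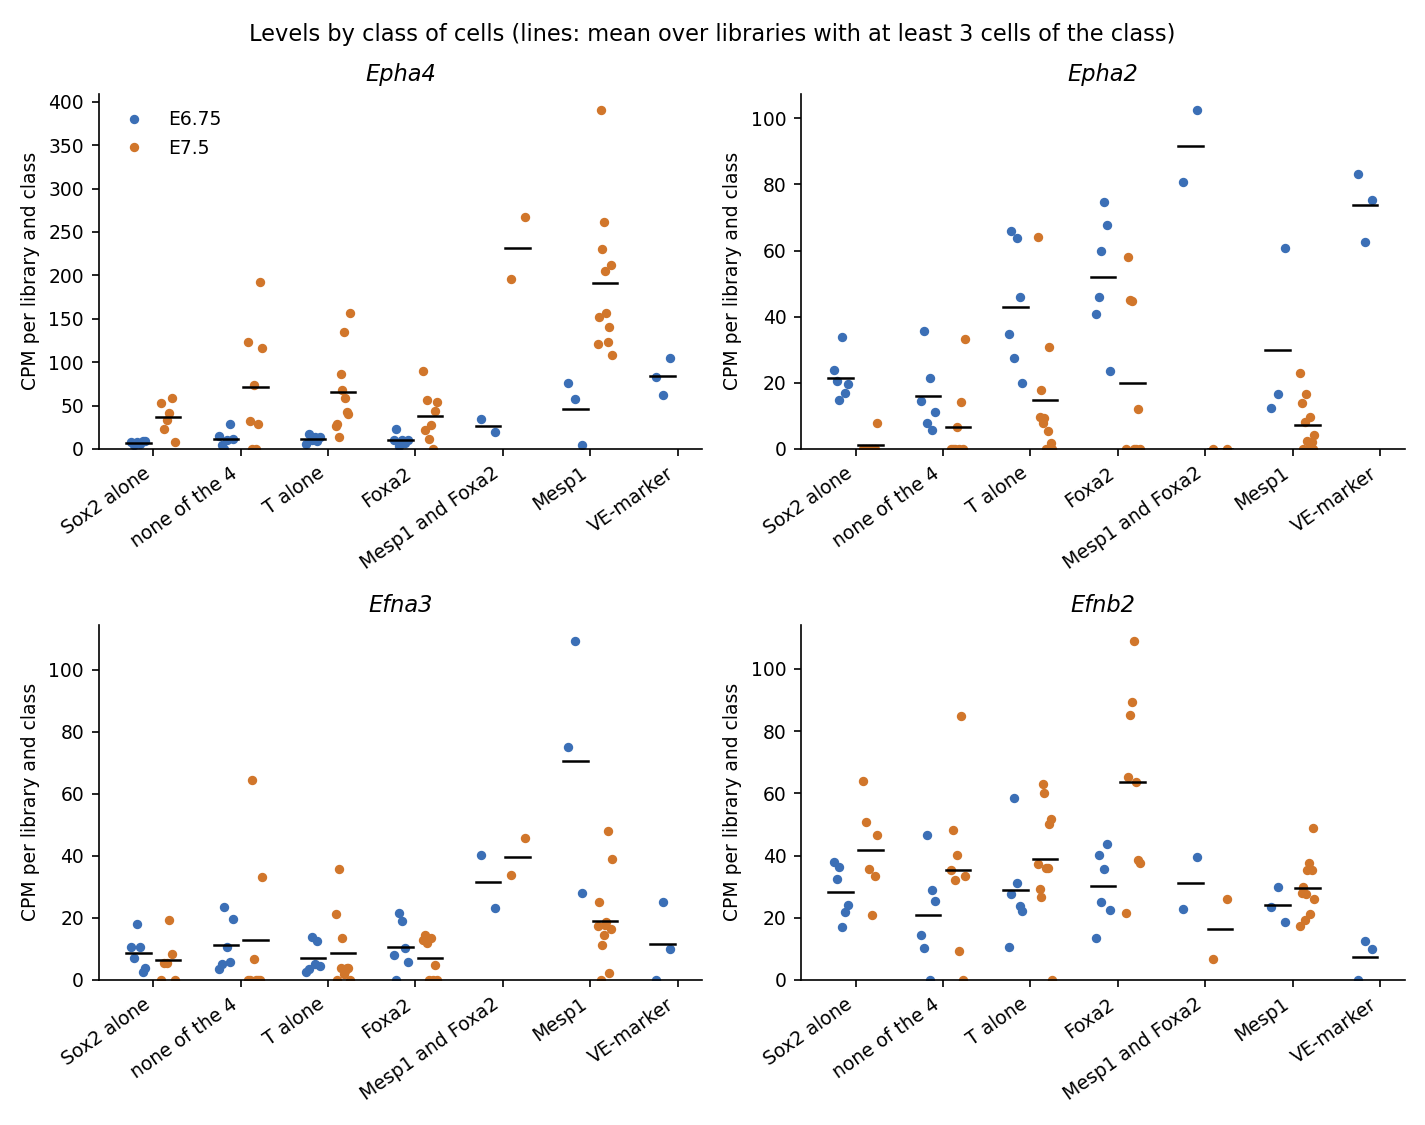
CPM of Epha4, Epha2, Efna3 and Efnb2 (vertical axes, linear) by class of cells, E6.75 in blue and E7.5 in orange. A point is 1 library with at least 3 cells of the class, and a line is the mean over libraries. Epha4 has its highest means in the E7.5 classes with Mesp1, 232 CPM with Foxa2 (2 libraries) and 191 without it (11 libraries), and Efna3 in E6.75 cells with Mesp1 and no Foxa2, where it spread from 28.1 to 109 CPM over 3 libraries.

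The VE-marker cells were described as a further class. Over the 3 E6.75 libraries with at least 3 such cells, Epha4 was at 83.2, 62.6 and 105 CPM (replicates 2_13, 2_14 and 2_9) and Epha2 at 83.2, 62.6 and 75.2. Efna5 was at 83.2, 338 and 115 CPM and Efnb1 at 74.0, 50.1 and 30.1. Each of those Epha4, Efna5 and Efnb1 levels was above the mean of every other E6.75 class. These means reached 46.2 CPM for Epha4, 50.1 for Efna5 and 9.06 for Efnb1. Single libraries of other classes overlapped for Epha4 and Efna5. Epha4 reached 76.2 CPM in Mesp1 cells without Foxa2 (median 57.9 over 3 libraries), and Efna5 reached 83.9 in cells with none of the 4 transcripts. Epha2 was not particular to the VE-marker cells either, at a mean of 73.7 CPM against 91.5 in E6.75 cells with both Mesp1 and Foxa2 (2 libraries). Efna1 had no transcript in the 18 cells, and Epha1 was at 9.25 to 25 CPM. Over the 18 cells there were 42 Epha4 and 27 Efnb1 transcripts, and no test was made.

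T-positive and T-negative cells of the same library were compared next, with the library as a block. At E6.75, 7 of the 9 genes passed the filter on low counts, and 3 were called, each higher in T-positive cells: Epha1, Epha2 and Epha4. The background over 9790 genes was 1.84% called higher and 1.6% lower, 3.44% in all. The median log2 fold change was 0.76 over the 7 genes and 0.00 over the genes tested. Summed visceral endoderm markers (9 of 9 detected on both sides) ran from 9.17 to 89.4 CPM in T-positive and 36.9 to 325 CPM in T-negative cells. A further fit left out cells with at least 0.05% visceral endoderm or extraembryonic ectoderm transcripts. There the 3 receptors were still called, at 0.73 (Epha1), 1.20 (Epha2) and 1.11 (Epha4). Efna3 and Efnb3 were called too, at 1.47 and 0.79 (edgeR adjusted p = 0.00176 and 0.0496).

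Epha1 was at 50.4, 54.9, 65.3, 82.4, 86.9 and 60.6 CPM in T-positive cells of replicates 1_10, 1_11, 2_12, 2_13, 2_14 and 2_9. The T-negative cells of the same libraries had 35.0, 34.6, 34.2, 44.5, 46.9 and 41.5. It was higher in 6 of 6 libraries and the groups did not overlap, and the log2 fold change was 0.76 ± 0.11 (edgeR adjusted p = 7.51e-05). Zyx, the overlapping gene, was higher by 0.43 ± 0.10 (edgeR adjusted p = 0.0122).

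Epha2 was at 38.2, 67.8, 56.0, 74.1, 57.3 and 20.2 CPM in T-positive cells and at 23.1, 22.0, 16.4, 29.0, 21.0 and 23.2 in T-negative cells, in the same order. It was higher in 5 of 6 libraries, replicate 2_9 being the exception, and its log2 fold change was 1.19 ± 0.18 (edgeR adjusted p = 0.000178). Epha4 was higher in 4 of 6 libraries, at 6.22 to 31.7 against 5.77 to 12.2 CPM, by 0.88 ± 0.23 (edgeR adjusted p = 0.0324). The Epha4 call was lost without replicate 1_11 (0.81, adjusted p = 0.0825), 2_13 (0.68, 0.358) or 2_14 (0.77, 0.232). It was also lost with replicates of prefix 2 alone (0.94, adjusted p = 0.0533), without the block (1.03, 0.157), with no cells left out (0.55, 0.313) and in DESeq2 (0.79, 0.449). By exclusive class, mean Epha4 at E6.75 was 11.6 ± 4.14 CPM with T alone and 11.7 ± 9.81 with none of the 4 transcripts. It was 7.45 ± 1.95 CPM with Sox2 alone and 46.2 ± 37.1 in Mesp1 cells without Foxa2.

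Efna3 and Efnb3 did not pass in T-positive E6.75 cells, at log2 fold changes of 1.08 ± 0.32 (edgeR adjusted p = 0.0711) and 0.75 ± 0.22 (0.0599). Efna3 passed without replicate 1_10, 1_11 or 2_9 (adjusted p from 0.0279 to 0.0395), and Efnb3 was higher in 6 of 6 libraries with ranges that overlapped. Efna5 and Efnb2, at -0.11 ± 0.15 and 0.09 ± 0.17, showed no difference beyond their errors.

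At E7.5, 5 of the 9 genes passed the filter and 2 were called in T-positive cells, Epha1 and Epha4, both higher, where 1.35% of 6230 genes were called higher and 1.99% in all. Epha1 ranged from 27.3 through 42.0 to 127 CPM in T-positive cells and from 0 through 19.9 to 81.6 in T-negative cells. It was higher in 11 of 11 libraries although the ranges overlapped, by 1.09 ± 0.21 (edgeR adjusted p = 0.00268), and without the replicate block the adjusted p was 0.0643. Zyx was higher by 0.68 ± 0.12 (edgeR adjusted p = 0.00105). Epha4 ranged from 71.1 through 115 to 210 CPM against 0 through 54.4 to 106. It was higher in 10 of 11 libraries, replicate 6 being lower, by 1.06 ± 0.21 (edgeR adjusted p = 0.00314). The divisions reuse the same cells, so T-positive cells can also be Mesp1-positive. By exclusive class, mean Epha4 at E7.5 was 65.7 ± 47.5 CPM with T alone and 70.8 ± 68.7 with none of the 4 transcripts. It was 36.3 ± 19.1 CPM with Sox2 alone and 191 ± 82.6 in Mesp1 cells without Foxa2. An Epha4 difference by T apart from Mesp1 was not tested. Epha2 was under the filter, and without one it passed at 1.87 ± 0.46 (edgeR adjusted p = 0.00391), higher in 10 of 11 libraries. In divisions fitted without a filter, here and below, p-values rest on a spread pooled over genes. They do not carry the spread of the single gene between libraries. The T-negative side is thin: replicate 9 had 3 such cells and no Epha1 or Epha4 transcript in them.

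**Figure D3:**
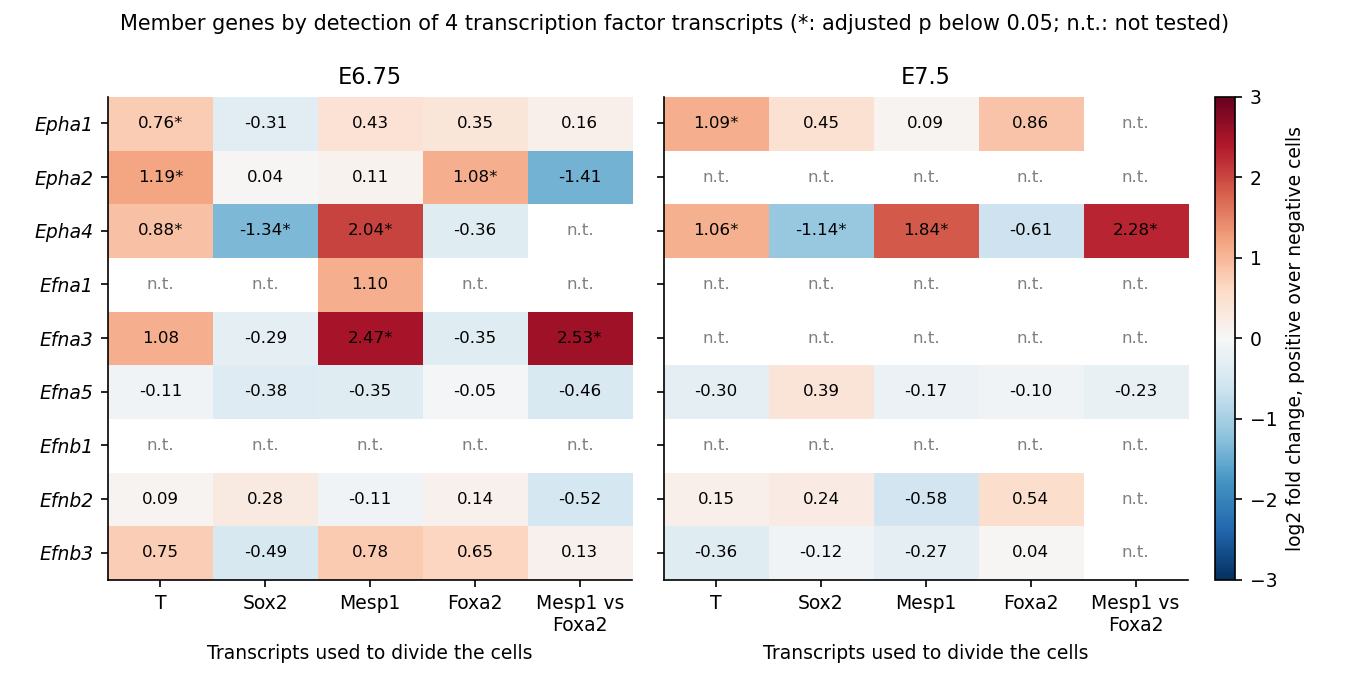
Log2 fold changes of the 9 genes (rows) between cells with and without T, Sox2, Mesp1 or Foxa2 transcripts, and between the Mesp1 and Foxa2 gates (columns), at E6.75 and E7.5. Colour and number give the same value, an asterisk marks an edgeR adjusted p below 0.05, and n.t. marks genes under the filter on low counts; Epha4 passed with Mesp1 in both stages, at 2.04 and 1.84.

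At E6.75 Mesp1-positive cells were found in replicates 2_9, 2_13 and 2_14 (5, 28 and 17 cells) and in no other library, so 3 libraries entered the test. Of the 9 genes 8 were tested, and Efna3 and Epha4 were called, both higher, where 0.846% of 9926 genes were called higher, 0.353% lower and 1.2% in all. Efna3 was at 16.3, 57.9 and 80.4 CPM in Mesp1-positive cells of replicates 2_9, 2_13 and 2_14 and at 6.47, 13.8 and 7.69 in the other cells of these libraries. It was higher in 3 of 3 without overlap, by 2.47 ± 0.30 (edgeR adjusted p = 7.55e-05).

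Epha4 was at 14.2, 55.4 and 45.2 CPM in the same Mesp1-positive cells and at 10.6, 9.28 and 9.61 in the negative cells. The groups did not overlap, and the log2 fold change was 2.04 ± 0.32 (edgeR adjusted p = 0.00116). Replicate 2_9 had 5 Mesp1-positive cells and the smallest difference, and without replicate 2_13 the Epha4 call was lost at 1.58 (adjusted p = 0.126). Efna1 also did not overlap, at means of 8.40 ± 2.00 and 3.56 ± 1.91 CPM, and did not pass (1.10 ± 0.51, edgeR adjusted p = 0.547).

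At E7.5, with 11 libraries, Epha4 was the 1 gene called of 5 tested, where 3.12% of 6154 genes were called higher, 3.35% lower and 6.47% in all. It ranged from 109 through 156 to 412 CPM in Mesp1-positive cells and from 29.3 through 49.6 to 106 in Mesp1-negative cells. The groups did not overlap and the gene was higher in 11 of 11 libraries, by 1.84 ± 0.15 (edgeR adjusted p = 7.97e-09). The closest pair was replicate 9, at 109 against 106 CPM, where the negative side held 5 cells and 3 Epha4 transcripts. The log2 fold changes of Epha4 with Mesp1 at the 2 stages, 2.04 and 1.84, differed by -0.19 ± 0.34 in the test of stage by Mesp1 detection (edgeR adjusted p = 1.0).

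Efna3 was under the filter in the E7.5 Mesp1 comparison. Its means were 20.3 ± 13 and 7.19 ± 6.58 CPM, higher in 9 of 11 libraries, and with no filter on low counts it passed at 1.20 ± 0.30 (edgeR adjusted p = 0.00219). The difference between stages in its Mesp1 effect was -1.21 ± 0.56 (edgeR adjusted p = 0.817). Efnb2 was lower in 8 of 11 libraries, at means of 35.6 ± 21.0 against 43.2 ± 11 CPM, and did not pass (-0.58 ± 0.23, edgeR adjusted p = 0.156). Without replicate 12 its value was -0.74 (adjusted p = 0.0268), and it passed with cells of at least 10000 transcripts (0.0319) and with positive cells holding at least 2 Mesp1 transcripts (0.0103).

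With Foxa2 at E6.75, Epha2 was the 1 gene called of the 7 tested, where 1.17% of 9764 genes were called higher and 1.51% in all. Epha1 (0.35 ± 0.13) and Efnb3 (0.65 ± 0.28) had unadjusted edgeR p-values of 0.0119 and 0.0327. They did not pass, with edgeR adjusted p of 0.272 and 0.426. Epha2 was at 40.8, 45.8, 60.0, 76.5, 75.2 and 21.7 CPM in Foxa2-positive cells of replicates 1_10, 1_11, 2_12, 2_13, 2_14 and 2_9. The Foxa2-negative cells had 24.4, 29.5, 16.1, 33.3, 26.3 and 22.5. It was higher in 5 of 6 libraries, again not in 2_9, by 1.08 ± 0.18 (edgeR adjusted p = 0.00125). Visceral endoderm cells also express Foxa2, and the 9 visceral endoderm markers summed to 105 to 676 CPM in the positive and 8.39 to 88.5 CPM in the negative cells. Of the 120 positive cells, 25 held at least 0.05% visceral endoderm transcripts. With cells of at least 0.05% visceral endoderm or extraembryonic ectoderm transcripts left out, the Epha2 call was still made.

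At E7.5 no gene of the 5 tested was called with Foxa2 by edgeR, and none by DESeq2, against 2.62% of 6459 genes (1.89% higher). Epha1 (0.86 ± 0.25), Epha4 (-0.61 ± 0.23) and Efnb2 (0.54 ± 0.23) had unadjusted p-values of 0.00231, 0.0115 and 0.0285, with edgeR adjusted p of 0.0729, 0.188 and 0.313. Epha1 passed without replicate 6 (adjusted p = 0.0287) and with cells of at least 10000 transcripts (0.0294), and Epha4 passed without replicate 12, at -0.95 (0.00306). Epha2, called with Foxa2 at E6.75, was under the filter here. With no filter on low counts it passed at 1.31 ± 0.41 (edgeR adjusted p = 0.0406), and Epha4 at -0.75 ± 0.17 (0.00122). The positive cells were few, 61 in all and 3 to 16 per library.

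Mesp1 cells without Foxa2 and Foxa2 cells without Mesp1 were then compared directly within libraries. At E6.75 this rested on 3, 15 and 11 Mesp1 cells and 26, 30 and 19 Foxa2 cells of replicates 2_9, 2_13 and 2_14, and Efna3 was the 1 gene called of 6 tested, where 0.491% of 7944 genes were called higher, 0.944% lower and 1.44% in all. Efna3 was at 28.1, 75.0 and 109 CPM in the Mesp1 cells and at 5.66, 18.9 and 10.2 in the Foxa2 cells (replicates 2_9, 2_13 and 2_14). The groups did not overlap, and the log2 fold change was 2.53 ± 0.31 (edgeR adjusted p = 9.29e-05).

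Epha2 leaned to the Foxa2 cells, with 12.3 and 16.5 CPM in the Mesp1 cells of replicates 2_13 and 2_14 against 74.7 and 67.6 in their Foxa2 cells. Replicate 2_9, which had 3 Mesp1 cells, went the other way with 60.8 against 23.6 CPM, and the fit over 3 libraries did not pass (-1.41 ± 0.47, edgeR adjusted p = 0.265). Without replicate 2_9 it passed at -2.31 (adjusted p = 0.000158), as it did with no filter on low counts (-1.43, 0.000405) and with a positive minimum of 2 transcripts (-2.87, 8.83e-11). Epha4 was under the filter, at 4.68, 76.2 and 57.9 CPM in the Mesp1 cells and 10.4, 10 and 6.49 in the Foxa2 cells of replicates 2_9, 2_13 and 2_14. Higher in 2 of 3 libraries, it passed without a filter at 2.47 ± 0.34 (edgeR adjusted p = 2.08e-10). That p-value rests on a spread pooled over genes and does not carry the reversal in replicate 2_9. The summed visceral endoderm markers were at no more than 19.8 CPM in the Mesp1 cells, with Apoa4 at 0, and at no less than 229 CPM in the Foxa2 cells. A further fit left out cells with at least 0.05% visceral endoderm or extraembryonic ectoderm transcripts. There Epha2 was at -1.52 and did not pass either (edgeR adjusted p = 0.366), and Efna3 was still called at 2.58.

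At E7.5, 2 of the 9 genes passed the filter in the comparison of Mesp1 and Foxa2 cells, over 8 libraries, and Epha4 was called. It ranged from 123 through 208 to 390 CPM in the Mesp1 cells and from 0 through 35.2 to 89.8 in the Foxa2 cells, higher in 8 of 8 libraries without overlap. Its log2 fold change was 2.28 ± 0.21 (edgeR adjusted p = 3.72e-08), against a background of 1.72% of 4468 genes called higher, 3.25% lower and 4.97% in all. Efnb2 leaned to the Foxa2 cells, at 63.7 ± 29.9 against 31.9 ± 9.54 CPM, and was higher there in 6 of 8 libraries. It was under the filter, and without a filter it passed at -0.98 ± 0.29 (edgeR adjusted p = 0.0212), as did Epha2 at -1.97 ± 0.49 (0.00234).

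**Figure D4:**
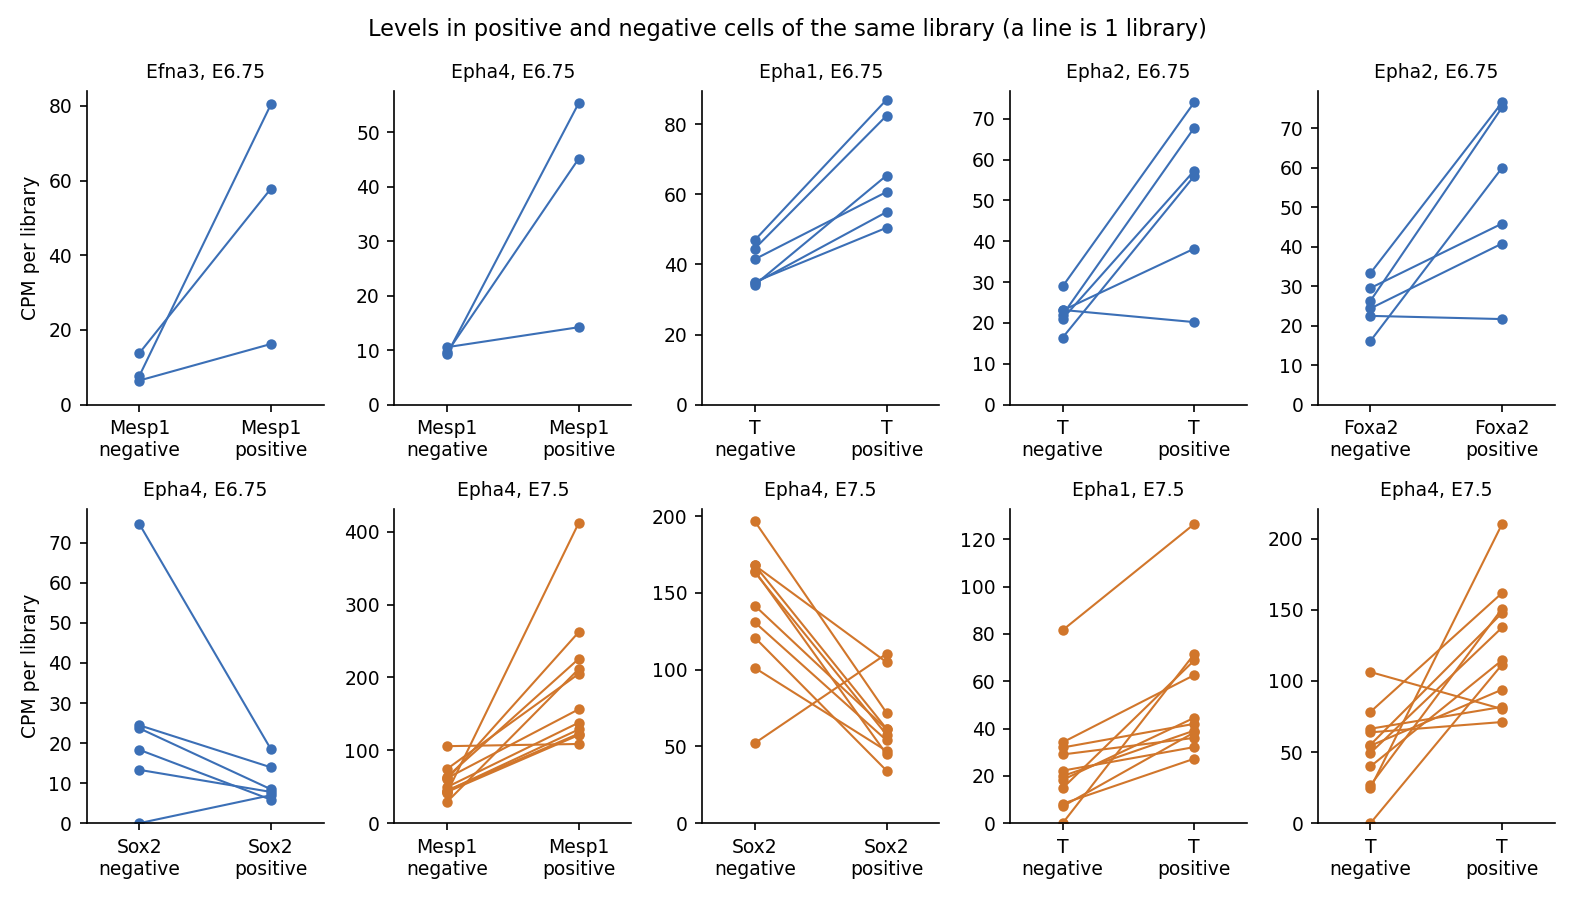
CPM in negative and positive cells of the same library (vertical axes, linear, each from 0), with a line for each library, E6.75 in blue and E7.5 in orange. In Mesp1-positive cells Efna3 (E6.75) and Epha4 (both stages) were higher in each library shown, Epha1 in T-positive cells of each library, and Epha4 was lower in Sox2-positive cells apart from replicate 2_12 at E6.75 and replicate 12 at E7.5.

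Epha4 was also the 1 gene called by Sox2 detection at either stage, and it was lower in Sox2-positive cells. At E6.75 it was at 7.80, 5.86, 6.99, 18.4, 13.9 and 8.46 CPM in Sox2-positive cells of replicates 1_10, 1_11, 2_12, 2_13, 2_14 and 2_9, against 13.3, 18.3, 0, 74.7, 24.4 and 23.7 in Sox2-negative cells. It was lower in 5 of 6 libraries, its log2 fold change being -1.34 ± 0.29 (edgeR adjusted p = 0.0126), where 1.29% of 9391 genes were called lower and 1.58% in all. The call was lost without replicate 2_13, at -1.06 (adjusted p = 0.167). It was lost with folds of similar size with replicates of prefix 2 alone (-1.37, adjusted p = 0.0655) and without the block (-1.44, 0.264). The same held with cells of at least 0.05% visceral endoderm or extraembryonic ectoderm transcripts left out (-1.24, 0.102). Summed visceral endoderm markers were at 7.93 to 142 CPM in the Sox2-positive and 166 to 599 CPM in the Sox2-negative cells.

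At E7.5 Epha4 ranged from 34.2 through 59.4 to 110 CPM in Sox2-positive cells and from 52.2 through 152 to 196 in Sox2-negative cells over 10 libraries. It was lower in 9 of 10, replicate 12 being the exception, the log2 fold change being -1.14 ± 0.17 (edgeR adjusted p = 5.79e-05). Of 6321 genes, 4.02% were called lower, 4.59% higher and 8.61% in all. Efna5 leaned the other way without passing, at 54.1 ± 14.2 against 42.8 ± 19.4 CPM (0.39 ± 0.18, edgeR adjusted p = 0.233). Epha1 passed in Sox2-positive cells without replicate 11, at 0.66 (adjusted p = 0.0360), and not with it (0.45 ± 0.23, adjusted p = 0.3).

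No difference between the stages passed for any of the 9 genes in the 5 tests of stage by detection, where 0.411% (T), 2.02% (Sox2), 0.341% (Mesp1), 0.885% (Foxa2) and 0.339% (Mesp1 against Foxa2 cells) of genes were called. The share called higher was 1.53% with Sox2 and 0.0365% with Mesp1. Over all genes the unadjusted edgeR p was below 0.05 for 523 of 8276 (T), 925 of 7832 (Sox2) and 468 of 8212 (Mesp1). It was so for 859 of 8705 with Foxa2 and 492 of 7661 in the comparison of Mesp1 with Foxa2 cells. Of the 9 genes it was so for 1 of 8 tested with T, 3 of 8 with Sox2 and 3 of 8 with Mesp1. For Foxa2 this was 0 of 8 and for Mesp1 with Foxa2 cells 2 of 9, and DESeq2 called 0 of the 9 genes. The smallest adjusted p was that of Efnb3 with T, whose effect was 0.75 ± 0.22 at E6.75 and -0.36 ± 0.18 at E7.5 and differed by -1.10 ± 0.27 (edgeR adjusted p = 0.0569). With T-positive cells taken at 2 or more transcripts this difference passed, at -1.32 (adjusted p = 0.0356). Efna3 in the comparison of Mesp1 with Foxa2 cells differed by -2.01 ± 0.71 between the stages (edgeR adjusted p = 0.452). The effects of Epha4 with T, Sox2, Mesp1, Foxa2 and the Mesp1 and Foxa2 cells differed by 0.16 ± 0.39, 0.22 ± 0.33, -0.19 ± 0.34, -0.22 ± 0.41 and -0.17 ± 0.42, each smaller than its error.

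Of the 13 other ephrin and Eph genes, 8 were tested between the stages and 4 rose, with none lower: the receptors Epha7 (1.90 ± 0.26), Ephb4 (1.09 ± 0.21) and Ephb2 (0.64 ± 0.20), and the class A ephrin Efna2 (0.69 ± 0.16). Over all genes 20.0% were called higher and 38.8% in all. Epha7 went from 1.71 to 4.74 CPM at E6.75 to 5.94 to 20.4 CPM at E7.5 without overlap. In T-positive cells at E6.75, where 3.44% of all genes were called, 1 of 7 tested was called, Ephb1, a receptor for class B ephrins. It had 0 to 8.42 CPM in T-positive and 9.40 to 15.8 CPM in T-negative cells and fell by 1.09 ± 0.29 on the log2 scale (edgeR adjusted p = 0.0344). At E7.5 Ephb3, another receptor of that class, was the 1 called of 4 tested with Foxa2 (2.62% of all genes), higher by 1.0 ± 0.25 (edgeR adjusted p = 0.0239). It was also called, lower in Mesp1 than in Foxa2 cells, at -0.99 ± 0.27 (edgeR adjusted p = 0.0290), and the 2 comparisons share their Foxa2 cells. In the other 7 comparisons of positive with negative cells none of the genes tested was called.

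Of 30 signalling and trafficking partners, 26 were tested between the stages, and 6 rose and 4 fell, 10 in all. This share is near that over all genes (20.0% higher, 18.8% lower, 38.8% in all). Among those that rose were Rgs3 (1.07 ± 0.29), a regulator of G-protein signalling bound by class B ephrins, and Nck1 (0.78 ± 0.19), an adaptor of activated receptors. The median over the 26 was 0.07, against 0.03 over the genes tested. Between positive and negative cells 1 partner was called in 1 comparison, as 1 of 17 tested where 1.99% of all genes were called: Tiam1 rose by 0.84 ± 0.22 in T-positive E7.5 cells (edgeR adjusted p = 0.0459).

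Genes with the most similar pattern were sought over 59 sums of 1 class in 1 library, after subtracting each stage's mean, among 8359 genes. These correlations are descriptions, because sums of the same library are not independent. The classes were set by detection of T, Sox2, Mesp1 and Foxa2, so the likeness of Efna3 to Mesp1 in part restates the Mesp1 comparison. Epha1 was most like Etv5 (Pearson r = 0.85), Heatr1 (0.81) and Tdrd3 (0.81), and Epha4 most like Phldb2 (0.77), Mmp14 (0.75) and Ckap4 (0.75). Epha2 was most like Eomes (0.62), Lifr and Arid3b, and Efna3 most like Ino80e (0.58), Mesp1 (0.58) and Gm37349. Efnb1 was most like Nrp1 (0.72), Phldb2 (0.71) and Rbms1, Efnb2 most like Ufsp2 (0.73), Efnb3 most like Ylpm1 (0.69) and Efna5 most like Aplp2 (0.52). Efna1, at a mean of 7.23 CPM, was under the level set for this search.

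Among the members themselves the closest pair over the same 59 sums was Efnb1 with Epha4 (r = 0.53), followed by Epha1 with Epha4 (0.40), and the lowest value was that of Efnb2 with Epha4 (-0.25). Phldb2 was among the 3 nearest genes of both Efnb1 and Epha4.

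Detection of ligand and receptor transcripts in the same cell was counted. After thinning, 59.8% of 438 embryonic cells at E6.75 held a transcript of at least 1 of the 6 ephrins, 52.1% of at least 1 of the 3 receptors, and 30.8% of both kinds. At E7.5 these shares were 74.9%, 61.4% and 45.1% of 339 cells. The shares with both kinds were not set against those given by independence, so they show no preference. The number of cells with both members of a pair was set against the number given by independence within each library, for 12 pairs at each stage. At E7.5 Efnb1 and Epha4 met in 25 cells against 19.7 under independence, above it in 7 and below it in 3 libraries. Efnb2 and Epha4 met in 36 against 41.3, below it in 8 of 11 libraries, and Efna5 with Epha4 in 49 against 52.4. At E6.75 Efna5 and Epha1 met in 39 cells against 46.3, and Efna3 and Epha4 in 5 against 3.88. These counts have no test, and with sparse detection a difference of a few cells shows no preference.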

How the data were processed

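The authors deposited expected counts for 23093 features in 192 barcode columns per library, and the values follow the correction of unique molecular identifiers for collisions with 4096 identifiers. Per the submitters' processing notes, bcl2fastq 2.17.1.14 and BWA 0.6.2-r126 were used. The genome build, annotation, counting program and use of strand are not given in the sources used here. Of the columns, 96 barcodes per library were in use. A pair of libraries shared from 0 to 96 of them, since barcodes are reused between libraries. Cells with at least 2000 nuclear transcripts were kept, with no doublet caller run, and E7.5 replicate 5 kept no cell and was left out. CPM are counts scaled to the nuclear transcripts of the same cells.

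Counts were summed per library, or per library and side of a division, and rounded for edgeR 4.0.16 (limma 3.58.1, R 4.3.3) with TMM scaling, its filter on low counts and the quasi-likelihood F test. P-values were adjusted by Benjamini-Hochberg over all genes tested, with a threshold of 0.05, and a standard error is the log2 fold change over the root of F. In divisions and tests of stage by detection fitted without a filter, p-values rest on a spread pooled over genes, not on that of the single gene. Divisions used libraries with at least 3 cells on each side, with the library as a block because both sides come from 1 library. The scripts were tested on simulated data. Alternatives were DESeq2 1.42.0, other scaling, filters and depths, a positive minimum of 2 transcripts, no block, E6.75 libraries of prefix 2 alone, cells set apart differently, and each library left out. Leaving out cells with at least 0.05% visceral or extraembryonic transcripts was chosen after seeing the data.

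The members and lists were chosen with earlier results of these data known. Named genes were the 9 members, other family genes that were called, up to 4 called partners per comparison with the largest changes, and the 3 genes most like each member with a mean of at least 10 CPM. Upstream windows were searched for letters only. Intervals of counting error are not given, as comparisons rest on the spread between libraries. Some results that this rule would name are not reported here.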

Additional observations from a re-analysis of the deposited data

Results flagged for a closer look

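Epha4 stood at 74.7 CPM in the Sox2-negative cells of E6.75 replicate 2_13, far above the other 5 libraries, which ran from 0 to 24.4 CPM. It was the 1 value standing apart among 23 groups of libraries examined, and about 5% of groups would be picked out by chance. Groups of 11 libraries at E7.5 and of 3 libraries at E6.75 were not examined. Epha2 at 38.6 CPM in E7.5 replicate 10 was in such a group. Without E6.75 replicate 2_13 the Epha4 difference by Sox2 at E6.75 did not pass (edgeR adjusted p = 0.167).

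Transcripts of the 9 genes were also present in data that no comparison used. The barcodes not in use held 18 of them at E6.75 and 36 at E7.5, at 222 and 301 CPM there, against 209 and 325 CPM in kept cells. The cells below the minimum depth, 33 and 723 in number, held 4 and 75 such transcripts, at a summed level of up to 286 CPM.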

How the results depend on the processing

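Of 1590 values for the 9 genes under other settings, 1553 kept their side of the threshold. Another 24 passed where the reported value did not, 13 no longer passed, and none changed direction when called. Values called under neither setting were not compared for direction, and some changed sign. Epha2 by Sox2 at E6.75 went from 0.04 to -0.02 with cells of at least 0.05% visceral or extraembryonic transcripts left out. The 5 calls between the stages held in each alternative that gave them a value. With cells thinned to 2000 transcripts 1 of the 9 genes was called between the stages, and 0 by T, Sox2, Mesp1 or Foxa2 at E6.75, in Mesp1 against Foxa2 cells at E6.75, and by T, Sox2 or Mesp1 at E7.5. Fewer genes passed the filter there: calls over all genes were 572 between the stages against 3879, and 2 to 8 by division at either stage.

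With no filter on low counts, 5 members were called by T and 3 in Mesp1 against Foxa2 cells at E6.75, and 2 by Mesp1, 2 by Foxa2 and 3 in Mesp1 against Foxa2 cells at E7.5. Over all genes the unfiltered counts against the reported ones were 530 against 337 (T), 281 against 148 (Sox2), 260 against 119 (Mesp1), 291 against 147 (Foxa2) and 240 against 114 (Mesp1 against Foxa2 cells) at E6.75. At E7.5 they were 370 against 124, 877 against 544, 923 against 398, 735 against 169 and 736 against 222. With cells of at least 10000 transcripts, 2 members were called by Mesp1, 1 by Foxa2 and 3 in Mesp1 against Foxa2 cells at E7.5. With a positive minimum of 2 transcripts, 3 were called in Mesp1 against Foxa2 cells at E6.75 (374 of all genes), 2 by Mesp1 at E7.5 and 1 in the test of stage by T. With cells of at least 0.05% visceral or extraembryonic transcripts left out, 5 were called by T and 0 by Sox2 at E6.75, and calls over all genes fell to 22 (Sox2), 43 (Foxa2) and 45 (Mesp1 against Foxa2 cells). With no cells left out these were 343, 442 and 182. With E6.75 libraries of prefix 2 alone, 0 were called by Sox2 (87 of all genes). DESeq2 called 160 genes by T, 47 by Mesp1 and 48 in Mesp1 against Foxa2 cells at E6.75. The cause was not tested in these cases.

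Without the replicate block, 0 members were called by Sox2 at E6.75 and 1 by T at E7.5, and calls over all genes were 93 (T), 37 (Sox2), 33 (Mesp1), 78 (Foxa2) and 65 (Mesp1 against Foxa2 cells) at E6.75, and 67 (T), 345 (Sox2) and 54 (Foxa2) at E7.5. Apart from Epha4 by T and Sox2 at E6.75 and Epha1 by T at E7.5, no call of a member was lost without the block.

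The tests of stage by detection called 34 (T), 158 (Sox2), 28 (Mesp1), 77 (Foxa2) and 26 genes (Mesp1 against Foxa2 cells). These became 152, 242, 105, 208 and 73 without a filter, and 1, 51, 0, 12 and 2 without the block. Thinning gave 3, 6, 1 and 1 for the first 4. DESeq2 called 15 by Mesp1 and 16 in Mesp1 against Foxa2 cells. Cells of at least 10000 transcripts gave 105 by Sox2, prefix 2 alone 50 by Sox2, a positive minimum of 2 transcripts 53 by T and 15 in Mesp1 against Foxa2 cells, and no cells left out 116 by Foxa2 and 44 in Mesp1 against Foxa2 cells.

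Leaving out each library in turn gave 5 to 6 members called between the stages. At E6.75 it gave 2 to 4 by T, 0 to 1 by Sox2, 1 to 2 by Mesp1, 1 to 1 by Foxa2 and 1 to 3 in Mesp1 against Foxa2 cells. At E7.5 it gave 2 to 2 by T, 1 to 2 by Sox2, 1 to 2 by Mesp1, 0 to 1 by Foxa2 and 1 to 2 in Mesp1 against Foxa2 cells. The tests of stage by Mesp1 and of stage by Mesp1 against Foxa2 cells gave 0 to 0 with each of the 3 E6.75 libraries left out (no E7.5 library was left out there), and the other 3 tests of stage by detection were not run with a library left out. Thinned cells gave no value for Mesp1 against Foxa2 cells at E7.5. Few transcripts per gene and side limit these comparisons, most of all at E7.5, where 2 to 5 of the 9 genes passed the filter.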
